A study of Mus musculus with 12 samples.

Results

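Synaptic vesicle and SNARE genes encode the proteins that dock, prime and fuse the vesicles from which neurons release transmitter. They were taken by symbol: syntaxins, their Stxbp partners, Vamp genes, the SNAP-25 family with Snap91, synaptotagmins, complexins, synapsins, Rims, Unc13, Sv2 and synaptogyrin genes whose counts summed to at least 100 over 12 libraries. The rule matched 75 of 53090 gene rows, which are 73 symbols, because Vamp5 and Vamp8 each stood in 2 rows with the same values in all 12 libraries and were counted once. Syngr4 and Vamp7-ps matched by name but summed to under 100 counts. Of the 73 symbols, 71 passed the filter on low counts and were tested, among them the pseudogene Stxbp3-ps; Syt8 and Vamp5 were not tested.

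The libraries hold mRNA recovered on HA-tagged ribosomes from retinas of C57BL/6 mice at postnatal day 3 (P3, 6 libraries) and day 9 (P9, 6 libraries). All mice of both ages had received tamoxifen by injection on days 1 and 2. The labels call the cells retinal pericytes; the sources used here do not give the driver of the tag, and RNA from before the immunoprecipitation was not analysed here. Whether each library came from its own animal is not said in the labels, so the p-values reflect only how far these libraries vary, and that variation may be technical.

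To check the label, markers of several cell types were read in the same libraries. By the test given below, 26.1% of all tested genes rose at P9 and 25.6% fell, and the marker counts stand beside these shares. The 12 pericyte markers summed to between 244 and 1215 CPM (read counts relative to the scaled size of the library, TMM-scaled) at P3 and between 2719 and 6099 CPM at P9, with 10 of 12 higher at P9. Markers of retinal neurons were present in the same libraries. The 12 rod photoreceptor markers summed to 1518 to 3370 CPM at P3 and 8830 to 17752 CPM at P9, and all 12 rose. The 14 bipolar cell markers summed to 1342 to 1605 CPM at P3 and 2929 to 3861 CPM at P9, with 13 rising and 1 falling. Summed markers of horizontal cells were 1.94-fold, of cones 1.58-fold and of ganglion cells 1.47-fold higher in mean at P9. Those of astrocytes were 1.45-fold and of Mueller glia 1.39-fold higher. Of these markers 5 of 7 horizontal, 6 of 10 cone and 6 of 12 ganglion rose, and 1, 1 and 3 fell. For astrocytes 3 of 6 rose and 1 fell, and for Mueller glia 8 of 12 rose and 1 fell. The ganglion sums overlapped between the ages (347.6 to 405.7 CPM at P3, 405.5 to 647.1 CPM at P9), as did those of Mueller glia. The 12 amacrine cell markers ran the other way in sum, from 1840 to 2480 CPM at P3 to 1469 to 1644 CPM at P9, with 4 rising and 6 falling. The 12 markers of retinal progenitors all fell, from a mean sum of 3721 CPM to 250.4 CPM (14.9-fold lower), and all 10 lens markers fell, from 6655 CPM to 264 CPM (25.2-fold lower). Endothelial markers summed 1.29-fold lower at P9, although 6 of 12 rose and 1 fell. The 1 that fell, Kdr, held most of the sum. Its mean was 926 CPM at P3 and 603 CPM at P9, of sums of 999 and 777 CPM. No marker of the pericyte, rod, bipolar and amacrine lists had a mean of 0 at either age. Library totals lay between 26839599 and 37776172 expected counts, and the part of these cell types in the results below was not tested.

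A vesicle fuses when a vesicle SNARE (synaptobrevin, a Vamp gene) zips together with a syntaxin and SNAP-25 in the plasma membrane. Munc18 and Munc13 proteins assemble and prime this complex, complexins hold and assist it, and synaptotagmins start fusion when calcium enters. Photoreceptors and bipolar cells of the retina release transmitter at ribbon synapses, which use syntaxin 3 and the complexins 3 and 4 in place of the syntaxin 1 and the complexins 1 and 2 of conventional synapses such as those of amacrine cells. Bulk RNA cannot tell fewer cells of a type from less RNA per cell.

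Promoters of 5 members are printed first: Unc13b, which took up the most reads of the set, 3 other genes that rose, and Syt6, the gene with the largest fall. All 5 hold a searched motif, so they do not stand for the set. The windows of Syt1, Stx3 and Unc13a hold none of the motifs and are not printed. Each run holds the 250 bases before a RefSeq transcript start on GRCm38.p6, written 5′ to 3′ on the strand of the gene, with capitals marking 1 of 4 searched motifs. These were CACGTG (E-box, the same on both strands), TAATCC (core of sites for the photoreceptor and bipolar factors CRX and OTX2), TTCAGCACC (left part of the site of the neuronal gene repressor REST) and TGACGTCA (cyclic AMP response element), each searched on both strands. Unc13b is at chr4:43058703-43058952 (+ strand, before a start that lies 12760 bases inside the annotated gene), Cplx3 at chr9:57606282-57606531 (- strand), Sv2b at chr7:75309263-75309512 (- strand), Syn1 at chrX:20920919-20921168 (- strand) and Syt6 at chr3:103574995-103575244 (+ strand). The last 4 lie directly upstream of the annotated gene.
Unc13b: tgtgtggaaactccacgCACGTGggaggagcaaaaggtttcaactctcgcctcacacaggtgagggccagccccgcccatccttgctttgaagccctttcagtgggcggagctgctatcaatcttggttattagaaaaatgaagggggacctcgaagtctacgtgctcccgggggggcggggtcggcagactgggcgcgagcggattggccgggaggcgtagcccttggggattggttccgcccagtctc
Cplx3: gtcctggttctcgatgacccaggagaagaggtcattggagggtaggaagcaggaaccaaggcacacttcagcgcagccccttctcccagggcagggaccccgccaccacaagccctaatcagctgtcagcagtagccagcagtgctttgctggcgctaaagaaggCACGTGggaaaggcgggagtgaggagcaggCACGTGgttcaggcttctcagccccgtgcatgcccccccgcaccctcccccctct
Sv2b: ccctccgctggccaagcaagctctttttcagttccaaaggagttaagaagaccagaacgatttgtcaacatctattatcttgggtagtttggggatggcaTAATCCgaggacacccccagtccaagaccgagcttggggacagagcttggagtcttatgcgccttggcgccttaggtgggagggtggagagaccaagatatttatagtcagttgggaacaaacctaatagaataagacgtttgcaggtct
Syn1: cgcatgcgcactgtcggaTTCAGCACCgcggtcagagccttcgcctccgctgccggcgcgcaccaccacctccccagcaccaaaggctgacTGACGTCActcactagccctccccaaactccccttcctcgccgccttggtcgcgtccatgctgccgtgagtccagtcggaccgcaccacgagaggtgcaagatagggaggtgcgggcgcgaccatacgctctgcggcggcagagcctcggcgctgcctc
Syt6: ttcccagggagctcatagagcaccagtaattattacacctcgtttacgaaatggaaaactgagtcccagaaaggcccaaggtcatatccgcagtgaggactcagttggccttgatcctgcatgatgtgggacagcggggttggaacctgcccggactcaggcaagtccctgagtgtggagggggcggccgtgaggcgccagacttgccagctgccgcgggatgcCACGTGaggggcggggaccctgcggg

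The RefSeq table held promoters for 54 of the 73 genes. The E-box letters were in the window of 8 of these 54 genes (14.8%) and of 6.86% of all 27025 genes in the table. Those 8 were Cplx3, Stx6, Stxbp2, Sv2b, Syt14, Unc13b, Syt6 and Vamp4. The first 6 rose at P9, of 28 rising genes with a promoter (21.4%), and the last 2 fell, of 8 falling genes (25%). Of 16 genes that did not pass, 0 held the letters. Cplx3 held the letters at 85 and 55 bases before its start. The E-box of Sv2b lies before another of its starts and is not in the run printed. A gene counts when any window of its starts holds the letters. TAATCC was in 2 of 54 (3.7%, Rims3 and Sv2b) against 7.21% of all genes. TTCAGCACC was in 1 of 54 (1.85%, Syn1) against 0.348%, and TGACGTCA in 2 of 54 (3.7%, Syn1 and Stxbp3) against 1.77%. A match describes letters in a window and not a bound site.

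Between P3 and P9 the set moved upward. By edgeR's quasi-likelihood test (Benjamini-Hochberg adjusted p below 0.05, adjusted over 18638 genes), 39 of 71 members rose (54.9%), against 26.1% of all tested genes. Another 8 members fell (11.3%), against 25.6% of all tested genes, and 24 did not pass. Either way 51.8% of all genes were called, so a call by itself is common here. All adjusted p given for single genes come from this fit. The median log2 fold change of P9 over P3 was 0.48 over the 71 members and -0.0018 over all tested genes. The 6 P9 libraries all lay above the 6 P3 libraries for 32 members, against 16.3% of all genes, and all below them for 4 members, against 15.4%; for all genes together, 31.7% had no overlap. A rise of at least 2-fold was called for 23 members, against 10% of all genes, and no member fell that far, against 8.01%.

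Genes of regulated release in neurons made up 30 of the 39 rises. Of 40 tested members assigned from textbook knowledge to that machinery, 30 rose (75%) and 3 fell (7.5%; Stx1a, Rims3 and Syt6), with a median log2 fold change of 1.01. Of 25 members of the general secretory and endosomal routes, 6 rose (24%, against 26.1% of all tested genes) and 5 fell (20%, against 25.6%), with a median of 0.04. Among 5 atypical synaptotagmins, 3 rose (60%) and none fell. The assignment was made with earlier results of these data known, and these counts carry no test.

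**Figure D1:**
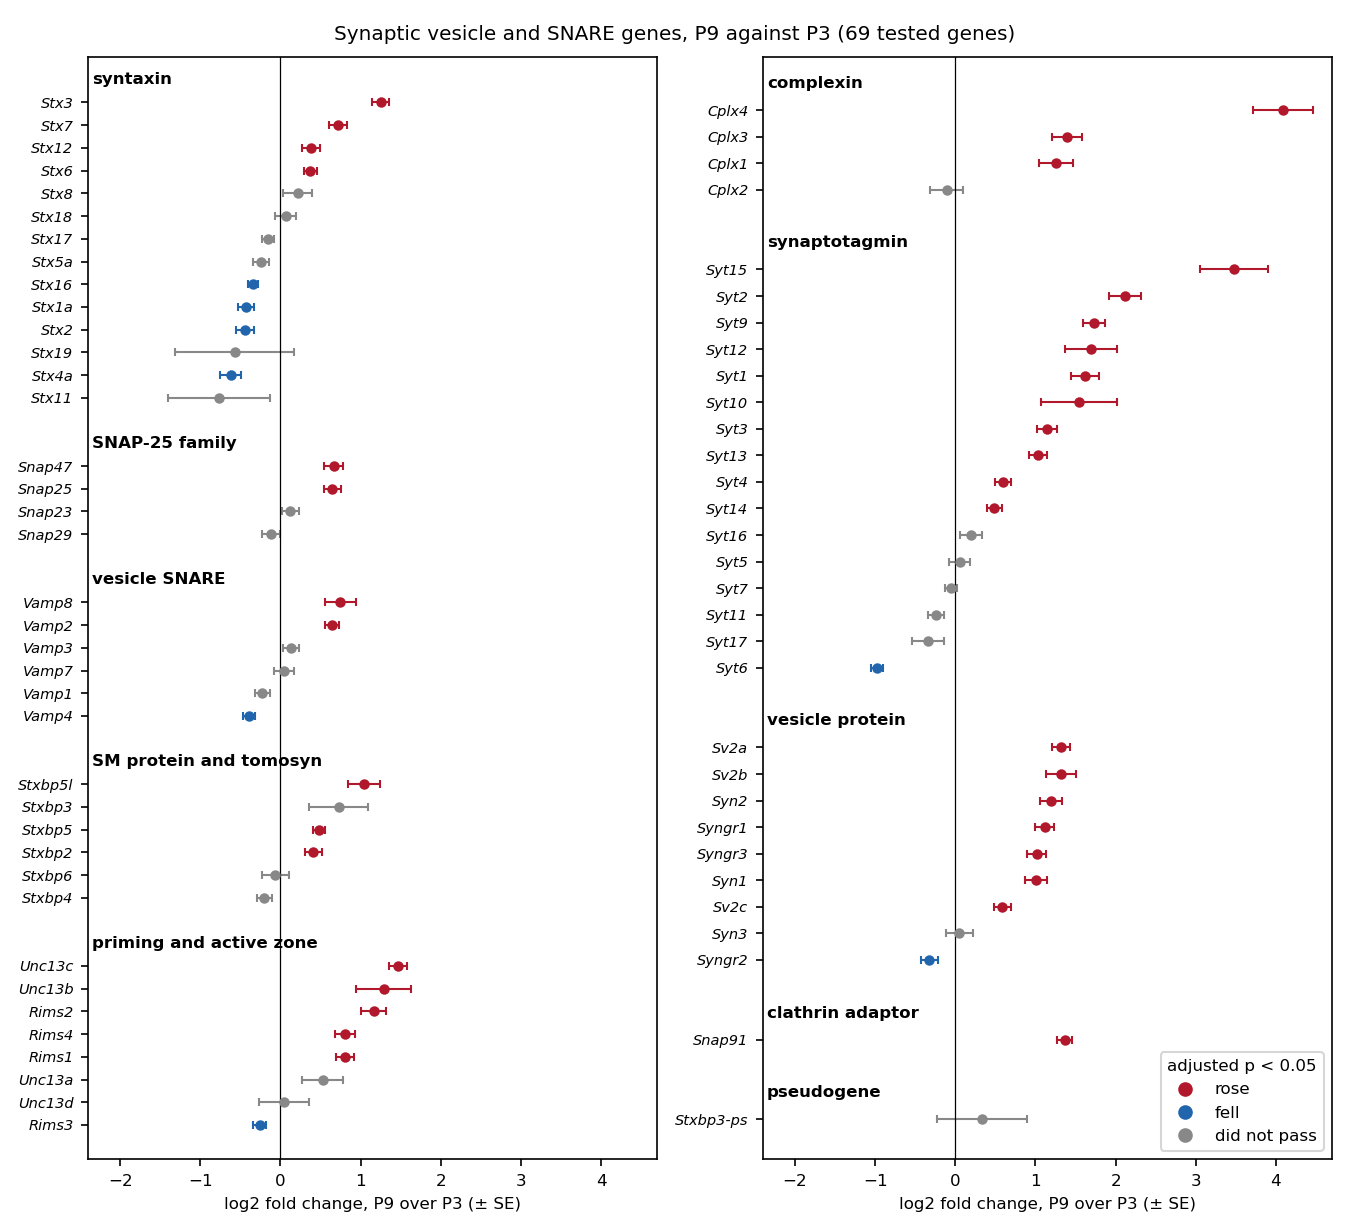
Log2 fold change of P9 over P3 for 69 of the tested members, grouped by role, with bars of 1 standard error; red marks an adjusted p below 0.05 with a rise, blue the same with a fall and grey the rest. Complexins, synaptotagmins and vesicle proteins lie mostly to the right of 0, and syntaxins lie on both sides, with Cplx4 at 4.09 and Syt6 at -0.98.

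Among the plasma membrane syntaxins, Stx3 rose and Stx1a, Stx2 and Stx4a fell. In Stx3, syntaxin 3 of photoreceptor and bipolar cell terminals, the lowest, median and highest of 6 libraries were 191, 203 and 248 CPM at P3 and 405, 508 and 598 CPM at P9. All P9 libraries lay above all P3 libraries, a 2.38-fold rise (log2 fold change 1.25 ± 0.11 SE, adjusted p = 3.03e-07). Stx1a, of conventional synapses, fell, from 33.6, 41.3 and 48.3 CPM to 26.5, 30.2 and 35.9 CPM, and here the highest P9 library lay above the lowest P3 library (log2 fold change -0.43 ± 0.10 SE, adjusted p = 0.00195). Stx4a, syntaxin 4 of constitutive and insulin-regulated secretion, measured 24.4, 40.4 and 46.1 CPM at P3 and 21.05, 24.1 and 27.6 CPM at P9. It was 1.54-fold lower at P9 (log2 fold change -0.62 ± 0.13 SE, adjusted p = 0.00117), and P3 replicate 5 alone lay within the P9 range. Stx2, another plasma membrane syntaxin, held 21.98 to 33.2 CPM at P3 and 17.5 to 22.7 CPM at P9 and also fell (log2 fold change -0.44 ± 0.11 SE, adjusted p = 0.004). Stx11, known from immune cell granules, was scarce, at 0.893 to 3.57 CPM at P3 and 0.0302 to 3.09 CPM at P9, and did not pass (adjusted p = 0.337). Stx19, which lacks a membrane anchor, stayed under 1 CPM in every library (adjusted p = 0.546).

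Among the syntaxins of inner membranes Stx7, Stx6 and Stx12 rose and Stx16 fell. Stx7 of late endosomes rose without overlap, with 28.5 to 46.1 CPM at P3 and 55.8 to 69.4 CPM at P9 (log2 fold change 0.72 ± 0.11 SE, adjusted p = 7.62e-05). Stx6 of the trans-Golgi and endosomes rose with a small overlap, holding 59.99 to 84.3 CPM at P3 and 79.9 to 99.5 CPM at P9 (log2 fold change 0.37 ± 0.08 SE, adjusted p = 0.00161). Stx12 of recycling endosomes, at 49.5 to 76.5 CPM at P3 and 72.6 to 95.9 CPM at P9, rose as well (log2 fold change 0.38 ± 0.11 SE, adjusted p = 0.00838), though not without P9 replicates 5 and 6 (adjusted p = 0.0579). Stx16, which works at the trans-Golgi, had the smallest adjusted p among the syntaxins that fell. Its libraries held 148, 158 and 170.2 CPM at P3 and 114, 127 and 136 CPM at P9, with no overlap (log2 fold change -0.34 ± 0.06 SE, adjusted p = 0.00039). Stx5a of the Golgi, at 158 to 235 CPM at P3 and 156 to 182 CPM at P9, lay just outside the threshold (log2 fold change -0.24 ± 0.10 SE, adjusted p = 0.0517) and was called as falling under 9 alternative settings, DESeq2 among them (adjusted p = 0.031). The ages overlapped and the test was not passed for Stx8 of late endosomes (6.14 to 11.6 CPM at P3 and 7.46 to 13.2 CPM at P9), Stx17 of autophagosomes (31.1 to 38.96 CPM at P3 and 29.5 to 33.96 CPM at P9) and Stx18 of the endoplasmic reticulum (10.5 to 17.7 CPM at P3 and 11.8 to 16.2 CPM at P9). In all, 5 of 15 syntaxins rose (33.3%, against 26.1% of all tested genes) and 4 fell (26.7%, against 25.6%), shares near those of all genes, and their median log2 change was -0.16.

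In the SNAP-25 family, which binds syntaxin in the SNARE complex, Snap25 and Snap47 rose and Snap23 and Snap29 did not pass. Snap25, the SNAP-25 of neurons, measured 438, 459.9 and 629 CPM at P3 and 736, 755 and 898 CPM at P9. The P9 libraries lay above all P3 libraries (1.57-fold, log2 fold change 0.65 ± 0.10 SE, adjusted p = 0.000115), with P3 replicates 4 and 5 the highest of their age. Snap47, a relative on intracellular membranes, held 29.9 to 47.1 CPM at P3 and 55.5 to 67.6 CPM at P9 and rose without overlap as well (log2 fold change 0.66 ± 0.12 SE, adjusted p = 0.000277). Snap23, the widely expressed form, held 27.2, 32.8 and 42.2 CPM at P3 and 30.3, 36.4 and 41.3 CPM at P9 (log2 fold change 0.12 ± 0.11 SE, adjusted p = 0.362), and its groups overlapped. Snap29, of autophagosome and endosome fusion, overlapped too, with 18.9 to 28.04 CPM at P3 and 17.6 to 24.7 CPM at P9 (log2 fold change -0.12 ± 0.11 SE, adjusted p = 0.408).

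On the vesicle side, Vamp2, synaptobrevin 2, measured 292, 313 and 365 CPM at P3 and 437, 491 and 573 CPM at P9. No P9 library fell within the P3 range (1.56-fold higher, log2 fold change 0.64 ± 0.09 SE, adjusted p = 2.99e-05). Vamp1, synaptobrevin 1, lay at 49.5, 58.9 and 74.6 CPM at P3 and 46.9, 50.2 and 55.7 CPM at P9, and its groups overlapped (log2 fold change -0.23 ± 0.09 SE, adjusted p = 0.054); 5 alternative settings called it as falling. The log2 ratio of Vamp2 to Vamp1 was 0.85 higher at P9 and its ranges were apart, from 1.97 to 2.81 at P3 and from 2.97 to 3.54 at P9. Vamp3, cellubrevin of recycling endosomes, held 25.4, 31.6 and 37.99 CPM at P3 and 30.6, 34.9 and 38 CPM at P9 (log2 fold change 0.13 ± 0.10 SE, adjusted p = 0.302). Vamp7, of lysosomes and late endosomes, overlapped likewise, with 9.58 to 13.8 CPM at P3 and 10.2 to 13.9 CPM at P9 (adjusted p = 0.801). Vamp8, endobrevin, was low and rose, with 2.02 to 4.21 CPM at P3 and 3.90 to 5.68 CPM at P9 in each of its 2 identical rows (log2 fold change 0.75 ± 0.20 SE, adjusted p = 0.00497). Summed over both rows, its mean was 5.88 CPM at P3 and 9.87 CPM at P9. Vamp4 of the trans-Golgi was the vesicle SNARE that fell, from 50.5, 60.2 and 64.1 CPM to 41.8, 43.97 and 51.03 CPM, with a slight overlap of the ages (log2 fold change -0.39 ± 0.08 SE, adjusted p = 0.000573).

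Of 7 Munc18 proteins, tomosyns and other syntaxin binders, 4 rose (57.1%, against 26.1% of all tested genes). None fell, against 25.6% of all tested genes. Stxbp5, tomosyn 1, which competes with synaptobrevin for syntaxin, had the smallest adjusted p of this role, at 110.3, 126 and 140.1 CPM at P3 and 159, 175 and 197 CPM at P9, with no overlap (log2 fold change 0.48 ± 0.08 SE, adjusted p = 0.000133). Its relative Stxbp5l, tomosyn 2, rose without overlap, with 3.15 to 5.12 CPM at P3 and 5.51 to 12.1 CPM at P9 (log2 fold change 1.04 ± 0.20 SE, adjusted p = 0.000531). Stxbp2, Munc18-2, rose with overlap of the ages, holding 85.7 to 126 CPM at P3 and 119 to 149.9 CPM at P9 (log2 fold change 0.41 ± 0.10 SE, adjusted p = 0.00396). The syntaxin 4 binder Stxbp4 (30.4 to 48.5 CPM at P3 and 33.4 to 37.9 CPM at P9) and amisyn, Stxbp6 (7.19 to 12.01 CPM at P3 and 6.15 to 10.8 CPM at P9), did not pass.

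Stxbp3, Munc18-3, differed most between libraries of 1 age among these genes and was chosen for description after its values were seen. It held 69.8, 98.1, 160.4, 353, 327 and 195 CPM in P3 replicates 1 to 6 and 258, 199.5, 238, 266, 551 and 476 CPM in P9 replicates 1 to 6. P3 replicates 4 and 5 exceeded 4 of the 6 P9 libraries, and the difference did not pass (log2 fold change 0.73 ± 0.37 SE, adjusted p = 0.115). Without P3 replicate 4 it passed, at a log2 fold change of 0.98 (adjusted p = 0.0388), and without both P3 replicates 4 and 5 it was 1.34 (adjusted p = 0.00454). There is also a pseudogene copy, Stxbp3-ps, so the split of reads between them is less certain. Over 12 libraries, 489 counts were assigned to the pseudogene and 106026 to Stxbp3.

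Munc13 proteins open syntaxin and prime vesicles, and Unc13b, which encodes Munc13-2, took up to 1.35% of the counts of a library. It held 1543, 2491, 2576, 5834, 7159.6 and 2762 CPM in P3 replicates 1 to 6 and 7129, 5588, 7836, 8096, 14057 and 11942 CPM in P9 replicates 1 to 6. P3 replicates 4 and 5 were the highest of their age and overlapped the P9 range, in which replicates 5 and 6 stood highest. The mean rose 2.44-fold (log2 fold change 1.29 ± 0.34 SE, adjusted p = 0.00533). Its share of all counts was lowest in P3 replicate 1, at 0.159%, and highest in P9 replicate 5. More reads were assigned to it than to any other gene in P3 replicates 4 and 5 and in P9 replicates 3 to 6, a count that also grows with transcript length. Neither the driver of the tag nor any vector sequence that could share reads with this gene is given in the sources used here, so these counts are reads assigned to Unc13b and their origin was not tested. Unc13b and Unc13a were singled out after their values were seen.

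Unc13a, Munc13-1 of most brain synapses, showed the same libraries high at P3. Its values were 285, 423, 426, 794, 943 and 329 CPM in P3 replicates 1 to 6 and 879, 695, 661, 723, 739 and 913 CPM in P9 replicates 1 to 6. The ages overlapped through P3 replicates 4 and 5, and the difference did not pass (log2 fold change 0.53 ± 0.25 SE, adjusted p = 0.0963). It passed without P3 replicate 4 (0.69, adjusted p = 0.0333), without replicate 5 (0.77, adjusted p = 0.0089) and without both (1.07, adjusted p = 2.59e-05). Unc13c, Munc13-3, was even within ages, at 16.2, 17.3 and 22.2 CPM at P3 and 39.3, 50.8 and 59.7 CPM at P9. Its groups were far apart (2.77-fold, log2 fold change 1.47 ± 0.11 SE, adjusted p = 1.31e-07), the smallest adjusted p among priming and active zone genes. Unc13d, Munc13-4 of blood cell granules, did not pass, with 1.82 to 5.71 CPM at P3 and 1.60 to 6.65 CPM at P9.

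**Figure D2:**
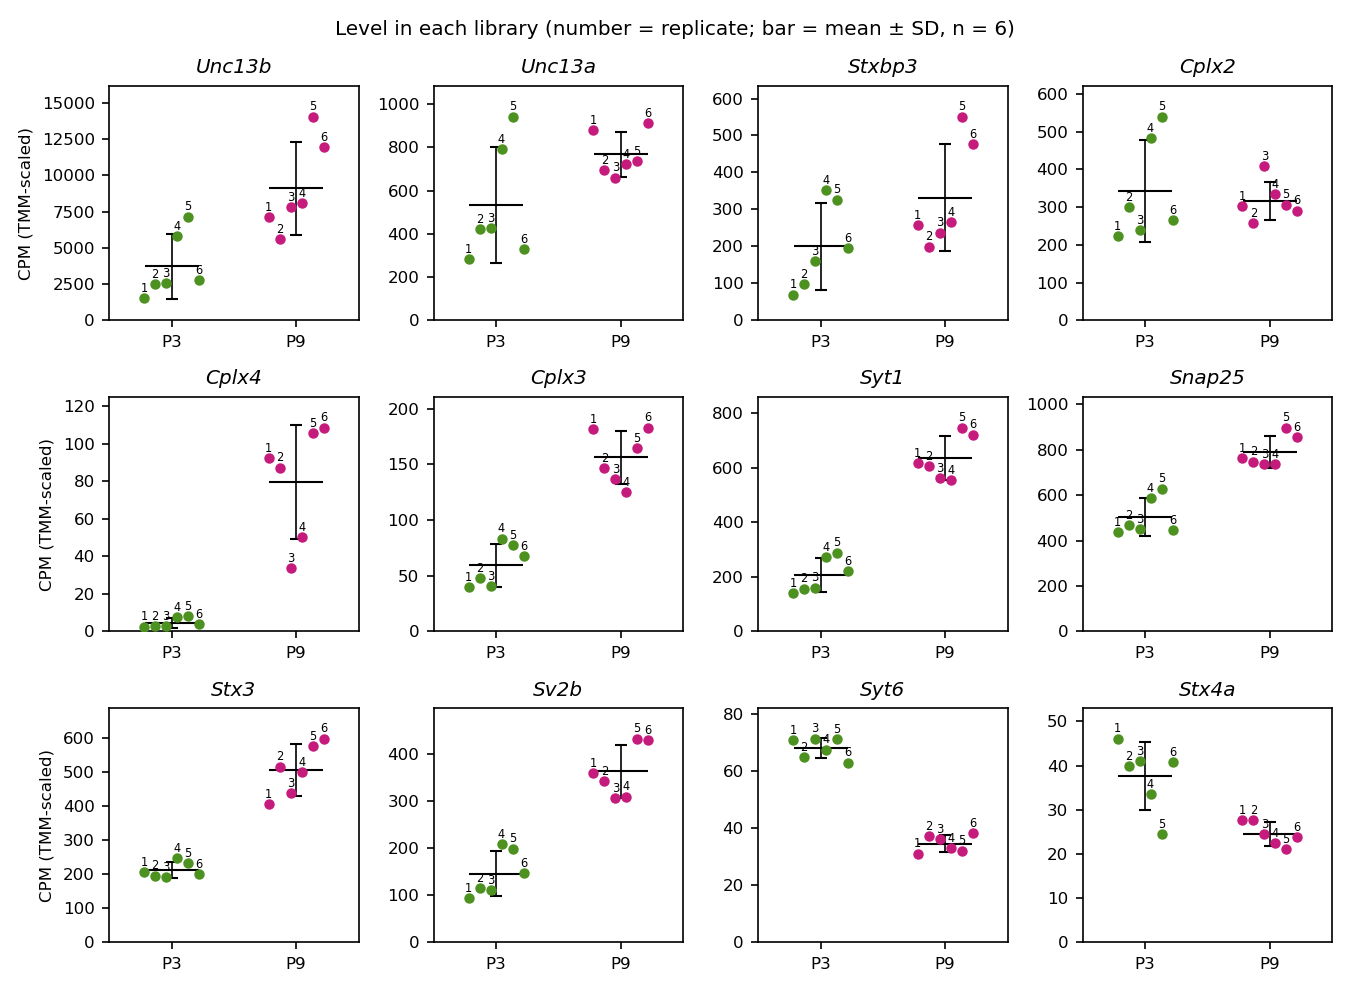
TMM-scaled CPM of 12 members in each library, green for P3 and magenta for P9, numbered by replicate, with bars for the mean ± SD of 6 libraries; axes start at 0 and differ between panels. Unc13b, Unc13a, Stxbp3 and Cplx2 have P3 replicates 4 and 5 well above the other P3 libraries and ages that overlap. Stx3, Cplx4, Syt1, Sv2b and Syt6 have ages that do not overlap, though P3 replicates 4 and 5 are also the highest of their age in Stx3, Cplx4, Syt1 and Sv2b.

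Rims genes encode active zone scaffolds that tie vesicles to calcium channels. Rims2, the largest rise among them, measured 33.1, 44.1 and 57.6 CPM at P3 and 74.5, 92.2 and 128 CPM at P9, without overlap (log2 fold change 1.16 ± 0.15 SE, adjusted p = 1.7e-05). Rims1 rose as well, with 23.4 to 34.4 CPM at P3 and 42.6 to 55.5 CPM at P9 (log2 fold change 0.80 ± 0.11 SE, adjusted p = 2.88e-05). The short form Rims4, at 9.11 to 13.8 CPM at P3 and 15.7 to 23.8 CPM at P9, also had ages apart (log2 fold change 0.81 ± 0.13 SE, adjusted p = 9.7e-05). Rims3, another short form, fell by a small amount, with 38.3, 40.3 and 45.3 CPM at P3 and 29.6, 35.6 and 38.2 CPM at P9 (log2 fold change -0.26 ± 0.08 SE, adjusted p = 0.0159). Its P9 libraries all lay below its P3 libraries, by a narrow gap. Of 8 priming and active zone genes, 5 rose (62.5%, against 26.1% of all tested genes) and 1 fell (12.5%, against 25.6%).

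Of the complexins, which clamp and assist the SNARE complex, both ribbon synapse forms and Cplx1 rose, and Cplx2 did not pass. Cplx4, a complexin of retinal ribbon synapses, had the largest fold change of the set, from 2.61, 3.32 and 8.13 CPM at P3 to 33.9, 89.8 and 109 CPM at P9. All P9 libraries exceeded all P3 libraries by far, a 17.1-fold rise (log2 fold change 4.09 ± 0.38 SE, adjusted p = 6.15e-07), though P9 replicates 3 and 4 were the lowest of their age. Cplx3, the other ribbon complexin, whose promoter with its repeated E-box is printed above, measured 39.6, 57.8 and 83.2 CPM at P3 and 125, 155 and 183 CPM at P9. Its ages did not overlap (2.63-fold, log2 fold change 1.40 ± 0.19 SE, adjusted p = 2.1e-05). Cplx1, of conventional synapses, held 8.18, 11.2 and 18.4 CPM at P3 and 20.9, 32 and 34.6 CPM at P9 and also rose without overlap (log2 fold change 1.26 ± 0.21 SE, adjusted p = 0.000138). For its close relative Cplx2 the difference was small beside its error (log2 fold change -0.11 ± 0.21 SE, adjusted p = 0.689). It held 223, 299.8, 238, 482, 539.9 and 266 CPM in P3 replicates 1 to 6 and 303, 258, 408, 335, 307 and 291 CPM in P9 replicates 1 to 6, and P3 replicates 4 and 5 exceeded every P9 library. Without either of them the sign of its small difference turned (0.03 without replicate 4 and 0.07 without replicate 5). Without both it was 0.31, just outside the threshold of the same test (adjusted p = 0.0543). The log2 ratio of Cplx3 to Cplx2, 2 genes that both stood high in P3 replicates 4 and 5, was 1.48 higher at P9 and did not overlap between the ages.

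Synaptotagmins sense calcium on the vesicle. The 3 fast sensors of release all rose. Syt1, the main fast sensor of forebrain synapses, measured 141, 190.3 and 289 CPM at P3 and 555, 612 and 747 CPM at P9. The P9 libraries were all above the P3 libraries (3.08-fold, log2 fold change 1.62 ± 0.17 SE, adjusted p = 2.66e-06). Syt2, its relative at fast synapses, measured 2.19, 2.44 and 3.57 CPM at P3 and 6.997, 11.8 and 15.7 CPM at P9, and its ages did not overlap (4.33-fold, log2 fold change 2.11 ± 0.20 SE, adjusted p = 8.49e-07). Syt9 had the smallest adjusted p among the synaptotagmins that rose, with 19.6, 26.8 and 30.7 CPM at P3 and 66.02, 88.5 and 102 CPM at P9. Again no P9 library fell in the P3 range (3.31-fold, log2 fold change 1.73 ± 0.14 SE, adjusted p = 1.65e-07). Syt7, the slower sensor of high calcium affinity, held 92.1, 104 and 116 CPM at P3 and 91.3, 99.03 and 109 CPM at P9 and did not pass (log2 fold change -0.05 ± 0.07 SE, adjusted p = 0.562).

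Syt6 was the synaptotagmin that fell, and its fall was the largest of the set. Its libraries held 62.9, 69.2 and 71.4 CPM at P3 and 31.1, 34.6 and 38.2 CPM at P9. Both ages were tight and apart, with P9 1.97-fold below P3 (log2 fold change -0.98 ± 0.07 SE, adjusted p = 8.79e-08). Syt3 and Syt10, which belong with Syt6 to a group of synaptotagmins joined by disulfide bonds, rose instead. Syt3 went from 5.97, 8 and 9.88 CPM to 16.4, 18.1 and 19.7 CPM without overlap (log2 fold change 1.14 ± 0.12 SE, adjusted p = 3.09e-06). Syt10, at 0.116 to 1.04 CPM at P3 and 1.06 to 2.16 CPM at P9, rose on few counts (log2 fold change 1.54 ± 0.48 SE, adjusted p = 0.0139). Syt5 held 12.1 to 16.4 CPM at P3 and 10.96 to 17.4 CPM at P9 and did not pass (adjusted p = 0.743).

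The remaining synaptotagmins mostly do not bind calcium. Syt15 rose most, from 0.155, 0.392 and 1.09 CPM to 2.09, 5.73 and 8.24 CPM without overlap, although from a very low level (11.1-fold, log2 fold change 3.48 ± 0.42 SE, adjusted p = 8.82e-06). Syt12, also low at 0.581 to 1.60 CPM at P3 and 1.69 to 4.81 CPM at P9, rose (log2 fold change 1.69 ± 0.33 SE, adjusted p = 0.000524). Syt13 rose without overlap, with 10.8 to 15.3 CPM at P3 and 20.4 to 30.7 CPM at P9 (log2 fold change 1.03 ± 0.11 SE, adjusted p = 3.69e-06). Its fellow atypical member Syt14 held 23.8 to 35.3 CPM at P3 and 38.04 to 44.8 CPM at P9, again apart (log2 fold change 0.48 ± 0.09 SE, adjusted p = 0.000557). Syt4, found on dense-core vesicles, rose with a slight overlap, at 42.3 to 61.3 CPM at P3 and 60.7 to 85.4 CPM at P9 (log2 fold change 0.59 ± 0.10 SE, adjusted p = 0.000177). Its relative Syt11, at 175 to 278 CPM at P3 and 173 to 222 CPM at P9, did not pass (log2 fold change -0.24 ± 0.10 SE, adjusted p = 0.0599), although 5 alternative settings called it as falling. Neither did Syt16 (11.2 to 17.2 CPM at P3 and 11.3 to 16.9 CPM at P9) and Syt17 (2.97 to 4.36 CPM at P3 and 2.21 to 3.86 CPM at P9). In all, 10 of 16 tested synaptotagmins rose (62.5%, against 26.1% of all tested genes) and 1 fell (6.25%, against 25.6%).

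Of 9 proteins of the vesicle membrane and surface, 7 rose (77.8%, against 26.1% of all tested genes). Another 1, Syngr2, fell (11.1%, against 25.6%), and the median log2 fold change was 1.01. Sv2a, a vesicle glycoprotein, measured 107, 121 and 160.1 CPM at P3 and 290.2, 317 and 365 CPM at P9, without overlap (2.50-fold, log2 fold change 1.32 ± 0.11 SE, adjusted p = 2.95e-07). Sv2b, a relative in which P3 replicates 4 and 5 were the highest of their age, measured 93.9, 131 and 208 CPM at P3 and 306, 351 and 432 CPM at P9. Its ages were still apart (2.49-fold, log2 fold change 1.32 ± 0.19 SE, adjusted p = 3.5e-05). Sv2c rose less, from 20.3, 24.9 and 28.6 CPM to 30.1, 37.4 and 43.1 CPM, also without overlap (log2 fold change 0.59 ± 0.10 SE, adjusted p = 0.000238). The log2 ratio of Sv2b to Sv2a differed by 0.03 between the ages, with overlapping ranges, whereas that of Sv2a to Sv2c was 0.75 higher at P9 without overlap.

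Synapsins tether vesicles to each other and to actin in the terminal. Syn1, whose promoter letters include both the REST and the cyclic AMP motif, measured 35.4, 38.99 and 59.8 CPM at P3 and 75.5, 85.9 and 108 CPM at P9, with no overlap (2.004-fold, log2 fold change 1.003 ± 0.14 SE, adjusted p = 2.56e-05). Syn2 measured 6.06, 7.47 and 8.41 CPM at P3 and 12.6, 16.6 and 22.4 CPM at P9, again apart (log2 fold change 1.19 ± 0.14 SE, adjusted p = 6.53e-06). Syn3, the synapsin of early development, stayed within overlapping ranges, 5.08, 5.97 and 7.66 CPM at P3 and 4.84, 6.33 and 7.74 CPM at P9 (log2 fold change 0.05 ± 0.17 SE, adjusted p = 0.827). The synaptogyrins are small membrane proteins of the vesicle. The neuronal Syngr1 rose without overlap, with 59.8 to 98.6 CPM at P3 and 139 to 197 CPM at P9 (log2 fold change 1.12 ± 0.12 SE, adjusted p = 2.63e-06). Syngr3 did so at 8.49 to 11.5 CPM at P3 and 18 to 25.7 CPM at P9 (log2 fold change 1.01 ± 0.12 SE, adjusted p = 5.13e-06). Syngr2, the widely expressed form, fell, with 10.9, 11.1 and 13.1 CPM at P3 and 8.04, 9.27 and 10.5 CPM at P9 (log2 fold change -0.32 ± 0.11 SE, adjusted p = 0.0228). Its ages did not overlap, but the adjusted p rose above 0.05 when P3 replicate 1 (0.0507) or P3 replicate 4 (0.0645) was left out, likewise for P9 replicate 5 (0.053), P9 replicate 6 (0.0504), P3 replicates 4 and 5 (0.0587) or P9 replicates 5 and 6 (0.122), and when low counts were not filtered (0.0742).

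Snap91, which encodes the neuronal clathrin adaptor AP180 and is no SNARE despite its symbol, measured 104, 115 and 134 CPM at P3 and 272, 294 and 353 CPM at P9. It rose 2.58-fold without overlap (log2 fold change 1.37 ± 0.09 SE, adjusted p = 4.85e-08), the smallest adjusted p of all members.

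Within several families related genes moved apart. On a log2 scale the ratio of Stx3 to Stx1a lay between 2.02 and 2.89 at P3 and between 3.50 and 4.44 at P9, a difference of 1.67. That of Syt9 to Syt6 went from -1.85 to -1.04 at P3 to 0.87 to 1.61 at P9, a difference of 2.71. Syt1 to Syt7 differed by 1.72 and Syngr1 to Syngr2 by 1.45, each without overlap of the ages. For Unc13b over Unc13a the difference was 0.76 and the ranges overlapped, as they did for Snap25 over Snap23 (0.53). These pairs were chosen after the values of single genes were seen and are a description with no test. A difference of log2 ratios between ages does not depend on transcript length, whereas the ratio itself does.

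**Figure D3:**
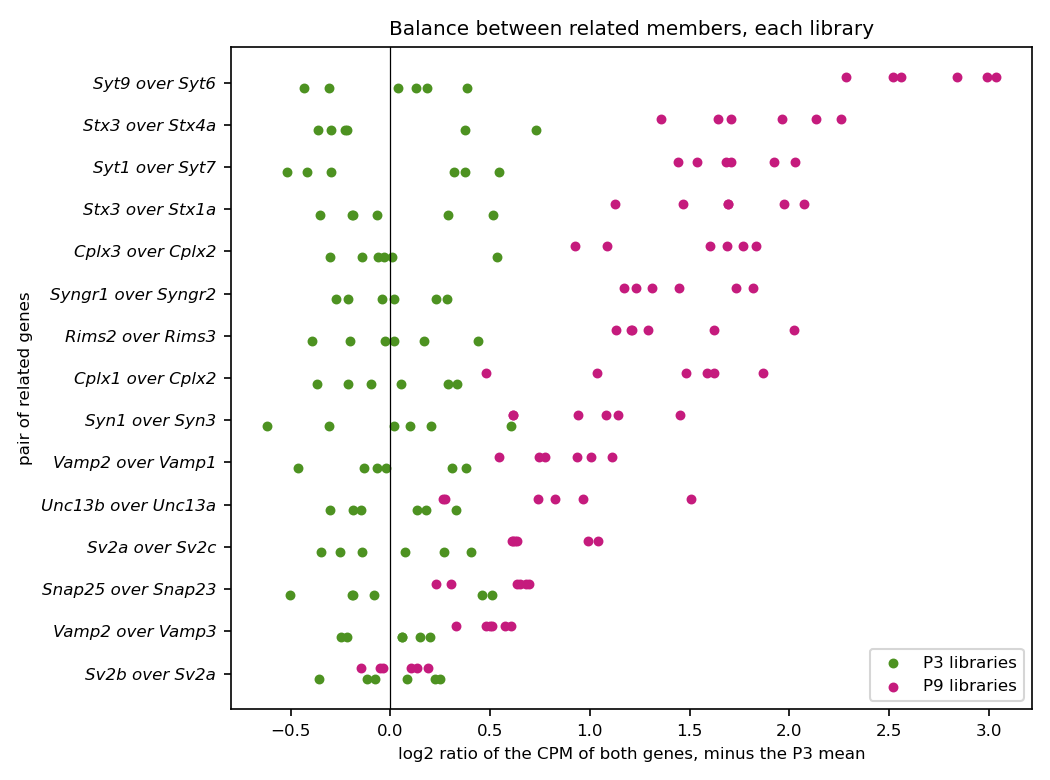
Log2 ratio of the CPM of 2 related members in each library, minus the mean of the P3 libraries, for 15 pairs; green points are the 6 P3 libraries and magenta points the 6 P9 libraries. The ages are apart for most pairs, from Syt9 over Syt6 at the top (mean difference 2.71), and they overlap for Unc13b over Unc13a, Snap25 over Snap23 and Sv2b over Sv2a.

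Libraries of the same age differed from each other beyond counting noise (chi-square per degree of freedom of at least 16.5 over 30 pairs). By this measure the most alike libraries were replicates 4 and 5 at P3 (22.2) and replicates 5 and 6 at P9 (16.5). Whether the libraries of such a pair share an origin was not tested, and the p-values treat all 6 libraries of an age as independent. The members followed a shared order in part. P3 replicates 4 and 5 were the highest libraries of their age for 27 of 71 members (38%), against 16.4% of all tested genes. P9 replicates 5 and 6 were the highest of theirs for 20 members (28.2%), against 11.1% of all tested genes. Both held for 14 members, among them Unc13b, Stxbp3, Syt1, Snap25, Stx3, Sv2a, Sv2b, Syn1, Cplx4 and Snap91. In the same libraries the rod markers summed highest, at 3370 and 3085 CPM in P3 replicates 4 and 5 and at 17247 and 17752 CPM in P9 replicates 5 and 6. So did the bipolar markers (1601 and 1605 CPM at P3, 3816 and 3861 CPM at P9) and the Mueller glia markers (1912 and 1969 CPM at P3, 2673 and 2648 CPM at P9). Those of amacrine, cone, ganglion and horizontal cells did not. Amacrine markers were lowest at P3 in replicate 4 (1840 CPM), and cone markers were highest at P3 in replicate 6 (489 CPM). Ganglion markers were highest in replicate 2 at both ages (406 CPM at P3, 647 CPM at P9). The pericyte markers were also highest at P3 in replicates 4 and 5 (1092 and 1215 CPM), but not at P9 in replicates 5 and 6 (3964 and 2719 CPM), and progenitor markers were lowest at P3 in replicates 4 and 5 (1894 and 1940 CPM). Their part in the members' order was not tested. Without P3 replicates 4 and 5, 41 members rose and 8 fell; without P9 replicates 5 and 6, 37 rose and 7 fell. The median coefficient of variation over the members was 16.6% at P3 and 12.5% at P9.

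**Figure D4:**
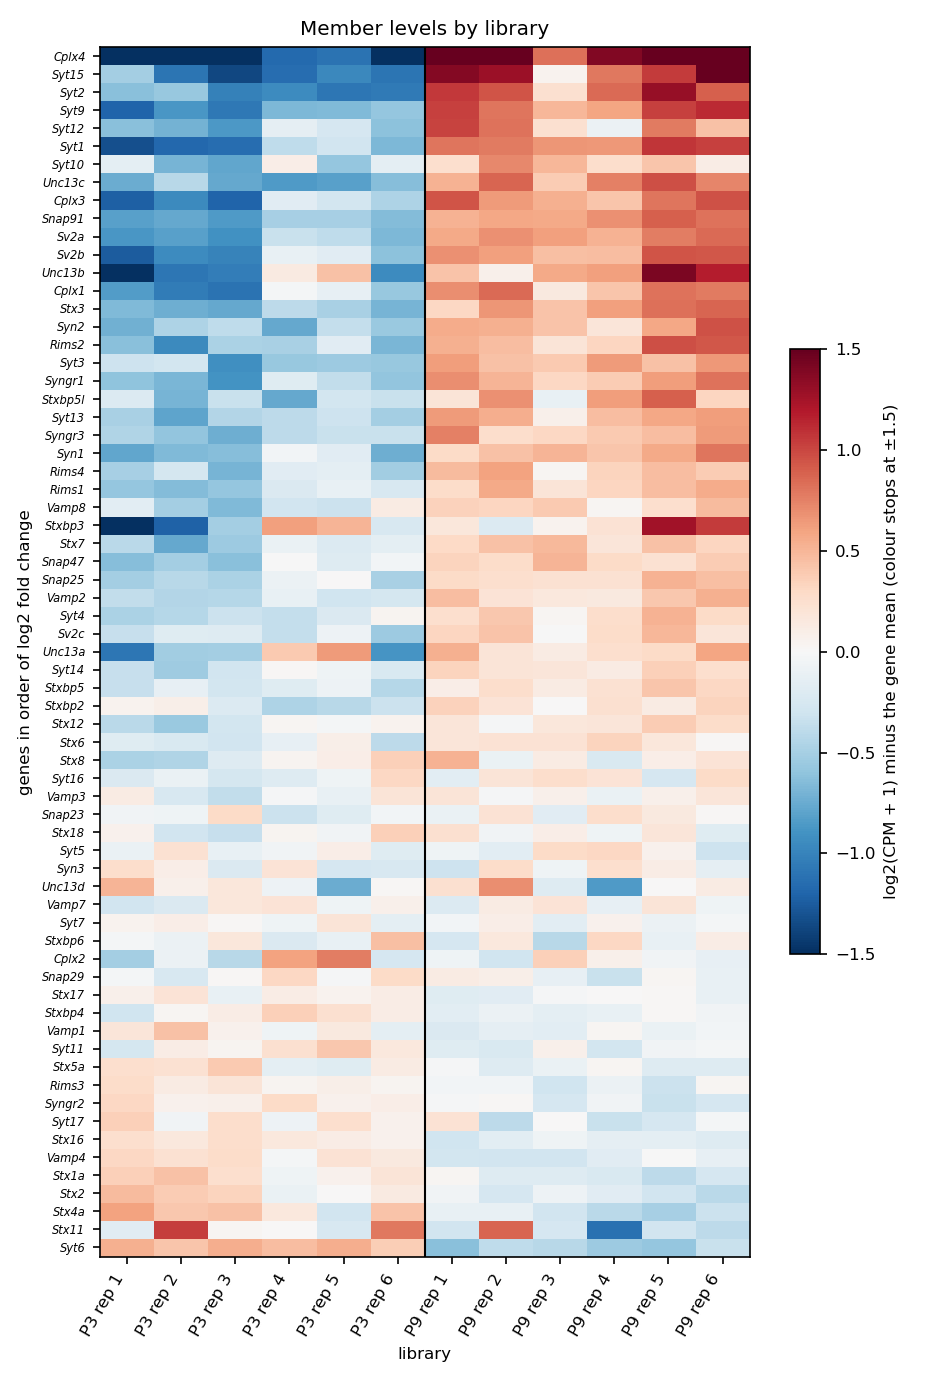
Log2(CPM + 1) of 67 members minus the mean of the gene over 12 libraries, with libraries in columns (a line parts P3 from P9) and genes in order of their fold change; colours stop at ±1.5. Most rows turn from blue at P3 to red at P9, the lowest rows turn the other way, and P3 replicates 4 and 5 are paler or red in rows such as Unc13b, Stxbp3, Unc13a and Cplx2.

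Other genes of exocytosis lie outside the symbol rule. Of 94 such genes on 6 lists, 93 were tested, 54 rose (58.1%) and 9 fell (9.68%), against 26.1% and 25.6% of all tested genes, with a median log2 fold change of 0.39. Vesicle membrane proteins and transmitter transporters rose most often, 15 of 17 (88.2%). Slc17a7, the vesicular glutamate transporter of photoreceptors and bipolar cells, measured 81.8 ± 21.4 CPM at P3 and 586 ± 151 CPM at P9 (mean ± SD, n = 6; log2 fold change 2.84 ± 0.20 SE, adjusted p = 6.74e-08). Slc18a2, the vesicular monoamine transporter of dopaminergic amacrine cells, was the member of that list that fell (log2 fold change -1.09 ± 0.19 SE, adjusted p = 0.000214). Of the vesicle endocytosis genes 14 of 23 rose (60.9%) and 2 fell (8.7%). Amph, amphiphysin, which recruits dynamin, had the smallest adjusted p among those that rose (log2 fold change 1.97 ± 0.13 SE, adjusted p = 4.03e-08), and Ston2, stonin 2, a sorting adaptor for synaptotagmin, among those that fell (log2 fold change -1.27 ± 0.11 SE, adjusted p = 4.76e-07).

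Of 10 active zone scaffolds, 4 rose (40%) and 1 fell (10%), beside 26.1% and 25.6% of all tested genes. Ctbp2, whose locus also encodes the ribbon protein RIBEYE, rose (log2 fold change 0.55 ± 0.09 SE, adjusted p = 9.61e-05), and Ppfia1, liprin alpha 1, fell (log2 fold change -0.24 ± 0.06 SE, adjusted p = 0.00516). The list of Rab3 and Rab27 genes and their effectors also holds other release factors, Cadps and Doc2a among them. Of its 19 tested genes, 8 rose (42.1%) and 2 fell (10.5%). Cadps, a priming factor of dense-core vesicles, had the smallest adjusted p of the rising ones (log2 fold change 1.51 ± 0.09 SE, adjusted p = 1.62e-08), and Doc2a, a calcium sensor of spontaneous release, of the falling ones (log2 fold change -0.98 ± 0.23 SE, adjusted p = 0.00214). In SNARE disassembly and tethering 6 of 12 rose (50%) and 2 fell (16.7%). Napb, the neuronal SNAP that brings NSF to spent SNARE complexes, rose (log2 fold change 1.42 ± 0.12 SE, adjusted p = 2.19e-07), and the exocyst subunit Exoc7 fell (log2 fold change -0.45 ± 0.06 SE, adjusted p = 3.61e-05). Of 12 other SNAREs of the secretory and endosomal route, 7 rose (58.3%) and 1 fell (8.33%), with Sec22a of the endoplasmic reticulum (log2 fold change 0.67 ± 0.09 SE, adjusted p = 2.16e-05) and Bnip1 (log2 fold change -0.60 ± 0.15 SE, adjusted p = 0.0035) at the smallest adjusted p in each direction.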

How the data were processed

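Polysome mRNA of 12 retinal libraries was measured after HA immunoprecipitation, with a stranded NuGEN mRNA kit per the labels. The authors deposited RSEM expected counts (estimated read counts per gene, not scaled to depth), of which 15.9% are not whole numbers. FastQC, Trim Galore, STAR, RSEM and limma are listed with build mm10, per the submitters' processing notes; the sources used here do not give their versions or roles, or the annotation. RSEM divides reads of near-identical copies by a model, so such genes are less certain.

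Expected counts were rounded to whole numbers, filtered with filterByExpr, scaled by TMM and compared (P9 over P3) in R 4.3.3 by edgeR 4.0.16 with its quasi-likelihood test. P-values were adjusted by Benjamini-Hochberg over the 18638 genes that passed the filter, and genes below 0.05 were called. The SE is the log2 fold change divided by the square root of F. The procedure was also run on simulated counts, with the outcome not reported here. Those counts were drawn independently for each library, so that run does not cover libraries that vary together. Low genes carry wider relative errors because they rest on fewer counts. Members and lists were chosen with earlier results of these data known. Full statistics are given, within each role, for the member with the smallest adjusted p in each direction, and for Snap25, Snap23, Stx1a, Stx3, Stx4a, Vamp1 to Vamp3, Syt1, Syt2, Cplx1 to Cplx4, Sv2a to Sv2c and Syn1 to Syn3. From each other exocytosis list the smallest adjusted p in each direction is named. Further values were added after they were seen. Some genes that the rule names are counted but not reported here.

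Replicates are numbered in deposition order. The comparison was repeated with library totals, upper-quartile or median-ratio factors in place of TMM, without the filter, with genes of at least 10 CPM on average, by limma-voom (limma 3.58.1), by DESeq2 1.42.0, with a robust fit, a threshold of 0.01, each library left out, 2 pairs of libraries left out and, added after seeing the data, rows of 1 symbol summed. Promoters are RefSeq windows on GRCm38.p6, which is the mm10 assembly, and were matched by symbol.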

Additional observations from a re-analysis of the deposited data

Results flagged for a closer look

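In 6 of 146 groups of 6 libraries, 1 library lay farther from the others than Dixon's 95% limit allows; chance alone gives about 1 in 20. Syt13 was low in P9 replicate 3, at 20.4 CPM, with the other P9 libraries between 26.98 and 30.7 CPM. Syt16 was high in P3 replicate 6, at 17.2 CPM, with the others between 11.2 and 13 CPM. Syt8, a synaptotagmin known mainly outside neurons that was not tested, reached 8.95 CPM in P3 replicate 1, where the other P3 libraries held at most 0.391 CPM. At P9 its highest value was 0.292 CPM in replicate 3, against at most 0.0604 CPM in the others. Stx11, a syntaxin of immune cell granules, stood at 3.09 CPM in P9 replicate 2, with the others between 0.0302 and 0.875 CPM. Vamp5, myobrevin, which was not tested either, was at 0.661 CPM in each of its 2 identical rows in P3 replicate 1, against at most 0.211 CPM in the other P3 libraries. Of these genes Syt13 was called between the ages, and its groups stayed apart with that library included.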

How the results depend on the processing

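All counts of called genes stayed within 1.5 times their main value under the 24 alternatives: those over all genes, rising and falling members, and rising and falling other exocytosis genes. With 1 library left out, the calls over all genes ran from 8936 to 9659, rising members from 39 to 41, falling members from 7 to 10, other exocytosis genes rising from 51 to 56 and falling from 9 to 10. Of the 39 rising members 36, and of the 8 falling members 6, kept their call under every alternative that tested them; Stx12, Syt10, Syngr2 and Rims3 were among those that lost it under at least 1. No call turned into the opposite call. Of the members that did not pass, 5 were called as falling under at least 1 alternative (Stx5a under 9, Vamp1 and Syt11 under 5 each, Stx17 and Stxbp4 under 1 each) and 2 as rising (Unc13a under 4, Stxbp3 under 2). The sign of differences that did not pass turned for Cplx2 without P3 replicate 4 (0.031), without P3 replicate 5 (0.069) and without both (0.31). It also turned for Syn3 without P3 replicate 5 (-0.0021), P3 replicate 6 (-0.00065), P9 replicate 2 (-0.011) and P9 replicate 4 (-0.0047). With 1 library left out, Cplx2 ran from -0.21 to 0.069 and Syn3 from -0.011 to 0.12. The cause was not tested. Expected counts do not show how reads of related genes were divided, and members near 1 CPM or below, such as Syt10, Syt15, Stx11 and Stx19 at P3, rest on few counts. No paired analysis was possible because replicate numbers are only deposition order.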
